A study of Mus musculus with 31 samples.

Results

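The 10 immediate early genes studied here, which are not AP-1 subunits (Egr1, Egr2, Egr3, Ier2, Ier3, Ier5, Btg1, Btg2, Nr4a1 and Klf6), were followed in mouse Ly6C-high monocytes. They were taken by symbol from the deposited table of gene counts, and all 10 are among its 24411 entries. All 10 also passed the filter on low counts, which left 12337 genes tested. The study compared RNA-seq libraries of monocytes from C57BL/6J mice in 3 groups of 3 libraries. Healthy blood came from mice without a tumor, LLC blood from mice carrying subcutaneous tumors of LLC (Lewis lung carcinoma, a transplantable mouse lung cancer line), and LLC tumor from such tumors themselves. In each group the cells were sorted as positive for CD11b, negative for Ly6G and MHC-II and high for Ly6C. The labels give no age, treatment or genotype beyond the strain, and do not say whether blood and tumor cells came from the same animals or whether the numbered libraries came from separate mice. The p-values therefore measure the spread between these libraries, which may be technical.

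Immediate early genes are transcribed within minutes of a stimulus, without new protein synthesis, from promoters that kinase cascades such as ERK reach through SRF, its ETS partners and CREB. Their products are mostly short-lived transcription factors, adaptors or growth regulators, and many of them feed back on the signal that induced them. In monocytes they respond to adhesion, growth factors and inflammatory signals, and warm enzymatic digestion and cell sorting are known to induce them too. How the tumors were taken apart before the sort is not given in the sources used here. All 3 tumor libraries came from solid tissue and the blood libraries did not, so effects of the tumor and of preparing cells from tissue cannot be told apart.

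Levels are CPM, counts scaled to the total of their library, with no division by transcript length, so a level is compared between libraries and not between genes. Library totals ran from 10457478 to 20706410 counts. A floor of 3 counts corresponded to 0.145 to 0.287 CPM, which covers counting error only. Differences are log2 fold changes with their standard error (SE) from edgeR's quasi-likelihood test over all 9 libraries, and a gene was called at a Benjamini-Hochberg adjusted p under 0.05 over the 12337 genes. The 3 comparisons share groups of libraries, so they are not independent of each other.

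In RefSeq's annotation of GRCm38.p6 the genes are spread over 8 chromosomes. Egr1 lies at chr18:34861207-34864956, Egr2 at chr10:67534469-67542188 and Egr3 at chr14:70077317-70082613. Ier2 lies at chr8:84661331-84662852, Ier3 at chr17:35821713-35822911 and Ier5 at chr1:155096367-155099636. Btg1 lies at chr10:96617001-96622813, Btg2 at chr1:134074865-134079155, Nr4a1 at chr15:101253902-101274795 and Klf6 at chr13:5861489-5870393. The deposited values are per gene and do not separate isoforms.

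The summed CPM of 8 classical monocyte markers was 12583 to 12681 in healthy blood, 14988 to 15907 in LLC blood and 16686 to 20125 in LLC tumor. Of its parts in replicate 1, Fn1 was the largest, at 4487 CPM in healthy blood and 6247 in LLC blood. Ly6c2 was lower in LLC blood 1 (1237 CPM) than in healthy blood 1 (1571), and the other markers were not. That did not hold in every replicate. Csf1r was at 2135 CPM in LLC blood 1 but at 1780 in LLC blood 2, below the 1899 to 2132 of healthy blood. LLC blood 1 stood apart from the other LLC blood libraries. It held 414.2 CPM of summed fibroblast markers against 3.67 and 4.59, of which Col1a1, a collagen chain, made up 212.2. In LLC tumor that sum was 938.2, 3470 and 3929 CPM, lowest in LLC tumor 1, and in healthy blood 16.9, 6.02 and 7.48. LLC blood 1 also differed in stress genes, whose values stand beside the results below.

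In LLC tumor the whole set was higher than in LLC blood in its fitted values, and 9 of the 10 genes were called higher and 0 lower. The members' median log2 difference was 2.49, against -0.03 over all genes tested. That comparison called 61.3% of all genes, 29.6% higher and 31.7% lower, so a call by itself was common. Against healthy blood 6 members were called higher in LLC tumor (Egr1, Egr2, Egr3, Ier3, Btg1 and Klf6) and 0 lower, with a median of 1.79. Of all genes 66.5% were called there, 33.5% higher and 33.0% lower. In LLC blood against healthy blood 5 members were called. Ier3 was higher and Egr1, Egr3, Ier2 and Btg2 were lower, and the members' median was -0.77 against -0.01 over all genes. Egr3 was tested in blood only because the fit also held the tumor libraries. The background share in that comparison was 23.6%, of which 14.0% of the genes tested were higher and 9.61% lower. Without LLC blood 1 all 10 members were called higher in LLC tumor than in LLC blood, 7 were higher and 1 lower than in healthy blood, and in blood 1 was higher and 6 were lower with a tumor. Without LLC tumor 1 those counts were 8 higher, 6 higher, and 1 higher with 7 lower.

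**Figure D1:**
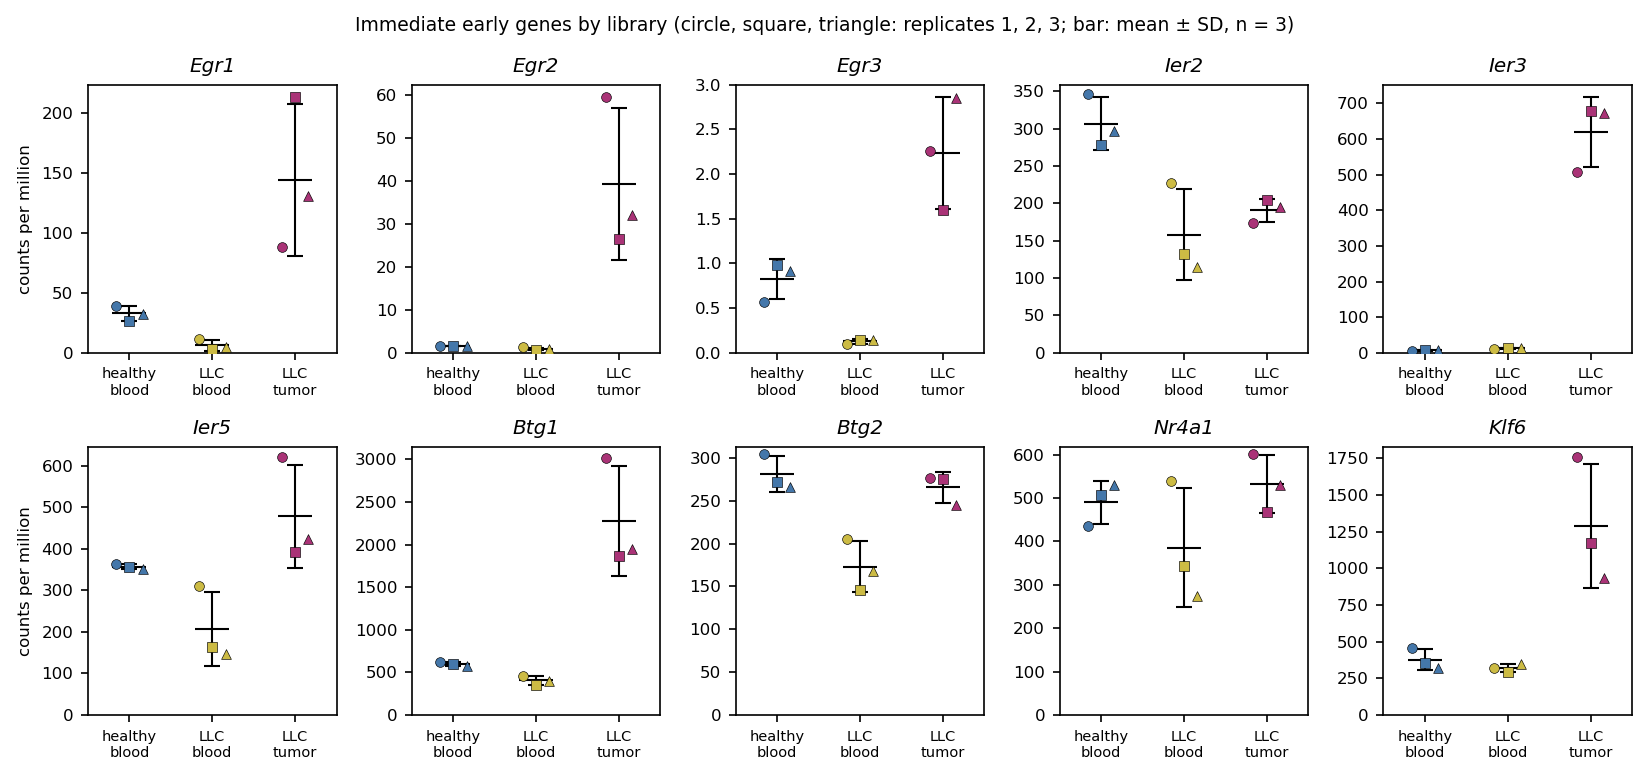
CPM (y axis, linear and starting at 0, with its own range for each gene) of the 10 genes in each of the 9 libraries; circles, squares and triangles are replicates 1, 2 and 3, and the bar gives the mean ± SD of 3 libraries. Ier3 lay at 507.3 to 678.5 CPM in LLC tumor and at 5.50 to 13.3 in all blood libraries, whereas Btg2 in LLC tumor (244.8 to 276.4) overlapped healthy blood (265.5 to 304.9).

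The EGR family came first among the members by role: Egr1, Egr2 and Egr3 (ENSMUSG00000038418, ENSMUSG00000037868 and ENSMUSG00000033730) encode related zinc finger transcription factors that bind a GC-rich site. Egr1 is a rapid readout of ERK signalling, Egr2 is also used in macrophage and lymphocyte differentiation, and Egr3 is itself a target of the other EGR proteins in some cells. All 3 were lowest in LLC blood and highest in LLC tumor, and the libraries of the groups did not overlap for any of them in any comparison.

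Egr1 was measured at 39.4, 26.9 and 32.8 CPM in healthy blood, at 11.6, 2.97 and 4.59 in LLC blood, and LLC tumor had 88.3, 213.5 and 130.8. The group means were 33.1 ± 6.27, 6.38 ± 4.57 and 144.2 ± 63.7 CPM (SD, n = 3 each). Every LLC blood library lay below every healthy blood library, and every tumor library above both. Egr1 fell in LLC blood by 2.47 ± 0.44 (SE) on the log2 scale (adjusted p = 0.00401). It rose by 4.73 ± 0.46 from LLC blood to LLC tumor (adjusted p = 2.02e-05) and by 2.26 ± 0.39 from healthy blood to LLC tumor (adjusted p = 0.000688). Without LLC blood 1, its highest library of that group, the difference in blood was -3.11 and the rise over LLC blood 5.37.

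Egr2 was low in blood and clearly detected in tumor. Its levels were 1.64, 1.47 and 1.59 CPM in healthy blood, 1.24, 0.623 and 0.773 in LLC blood, and LLC tumor had 59.6, 26.6 and 32.1. The tumor libraries exceeded all 6 blood libraries, with LLC tumor 1 the highest. The rise was 5.78 ± 0.46 over LLC blood (adjusted p = 6.43e-06) and 4.87 ± 0.42 over healthy blood (adjusted p = 9.24e-06), or 4.27 without LLC tumor 1. In blood the difference was -0.91 ± 0.54 and was not called (adjusted p = 0.257). It was called without LLC tumor 1, at -0.96 and an adjusted p of 0.0176, in a range of 0.0176 to 0.491 over 19 alternatives.

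Egr3 was near the limit of counting. It had 8, 16 and 15 counts in healthy blood, 1, 2 and 3 in LLC blood, and LLC tumor had 25, 18 and 33. All 3 LLC blood libraries were at or under the floor of 3 counts. With counts summed over the libraries of a group and scaled by their totals, healthy blood exceeded LLC blood 6.37-fold (95% counting interval 2.68 to 18.4), and LLC tumor exceeded LLC blood 17.0-fold (7.47 to 47.9) and healthy blood 2.68-fold (1.80 to 4.04). All 3 differences were called in the edgeR fit, with adjusted p-values of 0.00468, 4.34e-05 and 0.00353. With the blood libraries alone Egr3 did not pass the filter, so its difference in blood had 17 alternatives where the other members had 19. Its call in blood thus depends on a fit that holds the tumor libraries, where it was highest.

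Of the family's corepressors and paralogs, Nab2, which binds EGR proteins and is itself an EGR target, had the same order of groups as Egr1. It fell from 22.2 CPM in healthy blood to 6.56 in LLC blood, a log2 difference of -1.79 ± 0.12 (adjusted p = 2.92e-05). In LLC tumor it stood at 87.0 CPM, higher than in LLC blood by 3.93 ± 0.12 (adjusted p = 7.49e-08). In LLC blood 1 Nab2 was at 6.60 CPM, between the 6.85 and 6.23 of the other LLC blood libraries, so it did not share the high value of Egr1 there. Nab1, its relative, rose by 0.55 ± 0.09 from LLC blood to LLC tumor (adjusted p = 0.000450). Egr4 did not pass the filter on low counts.

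Egr2 is shown by the bases before its transcription start because it had the largest rise of the EGR genes and a match to the CArG box, the 10-base site of SRF (CC, then any 6 bases of A or T, then GG). The sequence covers chr10:67537619-67537868 on the plus strand of GRCm38.p6, from RefSeq, and ends at the base before a start of Egr2. Capitals mark the CArG box and the 5-base core TGACG of the CREB site, written CGTCA where it lies on the other strand.

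Egr2: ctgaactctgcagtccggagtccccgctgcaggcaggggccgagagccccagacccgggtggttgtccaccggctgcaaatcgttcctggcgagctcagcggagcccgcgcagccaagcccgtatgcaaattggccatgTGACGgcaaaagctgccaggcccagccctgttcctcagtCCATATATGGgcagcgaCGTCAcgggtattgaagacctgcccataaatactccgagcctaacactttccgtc

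The CArG box CCATATATGG lay at bases -72 to -63 from that start, and the TGACG cores at -111 to -107 and -55 to -51. Another Egr2 start, with its window on the same strand, held CCTTTTTTGG at the same distance. Windows of 250 bases before to 50 after a start were searched on both strands for 32851 starts of 27025 genes, and 1.63% of them held a CArG box. The table held windows for 7 members (Egr2, Ier3, Ier5, Btg1, Btg2, Nr4a1 and Klf6), and Egr2 was the 1 with a CArG box. None of the 7 matched the ETS core CCGGAAG or the AP-1 site TGANTCA, which occurred in 8.86% and 7.81% of all windows. Egr1, Egr3 and Ier2 have no window in that table. A match is a description of letters and does not show binding.

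The IER genes Ier2, Ier3 and Ier5 (ENSMUSG00000053560, ENSMUSG00000003541 and ENSMUSG00000056708) are named for their induction. Ier3, also known as IEX-1, modulates apoptosis and is a target of NF-kB and p53; Ier2 is a nuclear protein linked to cell motility, and Ier5, a relative of Ier2, acts on heat shock factor HSF1. Their calls were not the same.

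Ier3 had the largest fold of the 10 genes in both comparisons with LLC tumor. It was measured at 5.50, 7.19 and 8.15 CPM in healthy blood, at 10.7, 13.3 and 12.8 in LLC blood, and LLC tumor had 507.3, 678.5 and 674.2. The groups were fully apart and in the order healthy blood, LLC blood, LLC tumor. From healthy to LLC blood it rose by 0.79 ± 0.14 (adjusted p = 0.00425), the 1 member to do so. The rise was 5.84 ± 0.15 from LLC blood to LLC tumor (adjusted p = 5.14e-08) and 6.63 ± 0.16 from healthy blood (adjusted p = 2.94e-08). Among all 12337 genes these ranked 413 and 316 from the largest increase. Unlike most members, Ier3 was not highest in LLC blood 1 and was lowest in LLC tumor 1.

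Ier2 had its highest mean in healthy blood, not in LLC tumor. Its levels were 346.4, 277.4 and 296.3 CPM in healthy blood, 227.2, 131.5 and 114.5 in LLC blood, and LLC tumor had 173.6, 203.8 and 194.9. All tumor libraries lay below all healthy blood libraries, and they overlapped LLC blood. Ier2 fell in LLC blood by 0.99 ± 0.22 (adjusted p = 0.0122). Without LLC blood 2 that difference was -0.87 and no longer called (adjusted p = 0.0573, in a range of 0.000171 to 0.0573 over 19 alternatives). From LLC blood to LLC tumor the difference was 0.48 ± 0.22 (adjusted p = 0.0901), and without LLC blood 1 it was 0.81 and called (adjusted p = 0.000495, range 0.000495 to 0.296). Against healthy blood it was -0.51 ± 0.22 (adjusted p = 0.0647), and it was called lower in 10 of 19 alternatives, among them those without LLC blood 1 and without LLC blood 3 (both -0.52), with adjusted p-values from 0.00198 to 0.167.

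Ier5 was even in healthy blood, at 362.9, 356.9 and 350.3 CPM, a coefficient of variation of 1.76%. LLC blood gave 310.5, 162.9 and 147.2 CPM, a coefficient of variation of 43.5%, and LLC tumor gave 620.3, 392.1 and 423.2. The groups did not overlap, with LLC blood 1 close to healthy blood and LLC tumor 1 far above the other tumor libraries. Ier5 rose by 1.45 ± 0.32 from LLC blood to LLC tumor (adjusted p = 0.00327). In LLC blood against healthy blood it differed by -0.82 ± 0.32 without a call (adjusted p = 0.0931); it was called without LLC blood 1 (-1.22, adjusted p = 0.0153) and without LLC tumor 1 (-0.86, adjusted p = 0.0224), in a range of 0.000671 to 0.275. In LLC tumor against healthy blood the difference was 0.63 ± 0.31 (adjusted p = 0.101). It was called without LLC blood 1 (0.63, adjusted p = 0.0393) and was 0.24 without LLC tumor 1, in a range of 0.0393 to 0.442. Its paralog Ier5l rose from LLC blood to LLC tumor by 1.93 ± 0.24 (adjusted p = 0.000101).

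Ier3 is shown for contrast with Egr2, since it rose about as far over LLC blood (5.84 against 5.78; over healthy blood 6.63 against 4.87) and the search found none of the motifs before its start. The sequence covers chr17:35821463-35821712 on the plus strand of GRCm38.p6, from RefSeq, and has no capitals because nothing matched. No match says only that these letters are not in this window.

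Ier3: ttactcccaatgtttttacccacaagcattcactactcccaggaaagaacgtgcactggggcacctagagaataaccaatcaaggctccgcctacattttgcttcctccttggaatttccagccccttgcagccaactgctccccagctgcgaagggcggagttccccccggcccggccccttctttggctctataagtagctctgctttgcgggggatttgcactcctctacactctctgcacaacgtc

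Btg1 and Btg2 (ENSMUSG00000036478 and ENSMUSG00000020423) encode antiproliferative proteins of the BTG/TOB family that recruit the CCR4-NOT deadenylase to messenger RNA. Both had their lowest mean in LLC blood. Btg1 was at 619.6, 596.5 and 576.9 CPM in healthy blood, 457.5, 355.1 and 403.9 in LLC blood, and LLC tumor had 3015, 1864 and 1944. The groups were fully apart, and the tumor mean was 2275 ± 643 CPM (SD, n = 3). Btg1 rose by 2.73 ± 0.26 over LLC blood (adjusted p = 1.94e-05) and by 2.14 ± 0.25 over healthy blood (adjusted p = 6.56e-05). In blood the difference of -0.59 ± 0.25 was not called (adjusted p = 0.117). Without LLC tumor 1, a library outside this comparison, it was -0.64 and called (adjusted p = 0.00139, in a range of 0.000645 to 0.301). The pseudogenes, Btg1-ps1 and Btg1-ps2 had at most 2 counts in any library, and reads that fit several copies could be split between them.

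Btg2, a target of p53 as well as of growth factors, was at 304.9, 271.9 and 265.5 CPM in healthy blood, 204.9, 145.5 and 168.5 in LLC blood, and LLC tumor had 276.4, 275.7 and 244.8. LLC blood lay below both other groups, and those overlapped. Btg2 fell in LLC blood by 0.73 ± 0.15 (adjusted p = 0.00869) and rose by 0.83 ± 0.15 from LLC blood to LLC tumor (adjusted p = 0.00110). Between LLC tumor and healthy blood the difference was 0.10 ± 0.15 (95% interval -0.24 to 0.44, adjusted p = 0.563). Its sign changed with the scaling, at -0.08 with library totals alone and -0.0019 with upper-quartile factors.

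In the same libraries the ratio of Btg1 to Btg2 counts was 2.03 to 2.19 in healthy blood and 2.23 to 2.44 in LLC blood. In LLC tumor it was 10.9, 6.76 and 7.94. Such a ratio does not depend on the scaling between libraries, and the lengths of the genes cancel when it is compared across groups. In LLC tumor the pair thus changed unequally. Other family members also differed from each other: Btg3 rose by 3.00 ± 0.44 from LLC blood to LLC tumor (adjusted p = 0.000285) and Tob1 by 1.30 ± 0.21 (adjusted p = 0.000479), whereas Tob2 fell by 0.36 ± 0.08 (adjusted p = 0.00388). Btg4 did not pass the filter.

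Btg2 and Btg1 are shown for the CREB site, which one of them has in full. Both sequences are from RefSeq on GRCm38.p6, Btg2 at chr1:134079156-134079405 on the minus strand and Btg1 at chr10:96616751-96617000 on the plus strand. Capitals mark the full site TGACGTCA in Btg2 and the 5-base core, written CGTCA, in Btg1.

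Btg2: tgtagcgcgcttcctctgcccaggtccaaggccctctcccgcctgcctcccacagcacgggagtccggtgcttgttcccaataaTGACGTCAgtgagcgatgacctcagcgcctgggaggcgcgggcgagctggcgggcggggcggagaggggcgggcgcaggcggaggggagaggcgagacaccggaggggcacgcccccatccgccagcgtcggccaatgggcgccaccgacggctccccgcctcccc
Btg1: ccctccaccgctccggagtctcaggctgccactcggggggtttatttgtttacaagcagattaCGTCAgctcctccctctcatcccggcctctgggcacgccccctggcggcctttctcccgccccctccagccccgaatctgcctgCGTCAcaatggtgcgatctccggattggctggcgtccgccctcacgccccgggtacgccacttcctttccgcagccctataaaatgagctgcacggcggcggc

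The full TGACGTCA lay at -166 to -159 from the start of Btg2 and occurred in 1.79% of all windows. Btg2 was the 1 member with it. The core alone, which overlaps the full site and was searched after these letters had been seen, occurred in 20.8% of all windows and in 4 of the 7 members (Btg1, Btg2, Egr2 and Nr4a1).

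**Figure D2:**
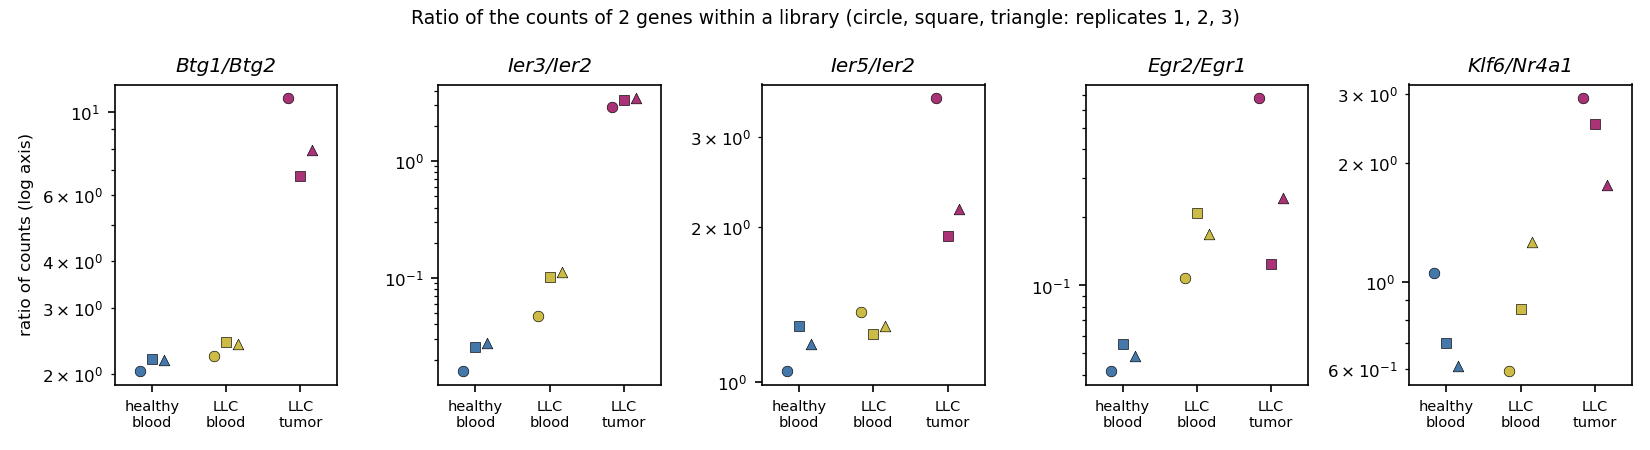
Ratio of the counts of a pair of members within each library (y axis, logarithmic), for 5 pairs; circles, squares and triangles are replicates 1, 2 and 3. Ier3 to Ier2 was 0.0159 to 0.0275 in healthy blood, 0.0471 to 0.112 in LLC blood and 2.92 to 3.46 in LLC tumor, while Egr2 to Egr1 in LLC tumor ran from 0.125 to 0.675 and overlapped LLC blood (0.107 to 0.209).

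Nr4a1 (ENSMUSG00000023034), the orphan nuclear receptor also called Nur77, is induced by growth factor and antigen receptor signals and is needed for Ly6C-low monocytes. It was detected in all libraries, and its groups overlapped. Its levels were 434.8, 507.7 and 529.2 CPM in healthy blood, 539.8, 343.3 and 274.8 in LLC blood, and LLC tumor had 600.7, 467.1 and 530.03. Each pair of groups overlapped, with LLC blood 1 above all healthy blood libraries. From LLC blood to LLC tumor Nr4a1 was called higher by 0.69 ± 0.25 (adjusted p = 0.0368), but the call was lost in 9 of 19 alternatives, with adjusted p-values from 0.00240 to 0.128. It was lost without any 1 of the healthy blood libraries (0.67 to 0.70), without LLC blood 2 (0.56) or 3 (0.49) and without LLC tumor 1 (0.49) or 3 (0.74). In blood the difference was -0.37 ± 0.25 (adjusted p = 0.309); without LLC blood 1 it was -0.68 and called (adjusted p = 0.0475, in a range of 0.0126 to 0.687). In LLC tumor against healthy blood it was 0.31 ± 0.25 (95% interval -0.25 to 0.87, adjusted p = 0.290).

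The paralogs of Nr4a1 were low in blood and rose in LLC tumor. Nr4a2 was at 1.06 CPM in healthy blood, 1.23 in LLC blood and 35.4 in LLC tumor, a rise over LLC blood of 4.97 ± 0.33 (adjusted p = 2.30e-06). Nr4a3 was at 0.383, 0.415 and 0.531 CPM in LLC blood, and LLC tumor had 19.5, 7.53 and 5.70, a rise of 4.84 ± 0.61 (adjusted p = 0.000115). Summed markers of Ly6C-low monocytes were at 3606 to 3696 CPM in healthy blood, 3256 to 3939 in LLC blood and 835.2 to 1092 in LLC tumor, so they were lower in the tumor, where Nr4a1 was not. Among them Spn was at 332.7 to 386.9 CPM in LLC blood and 75.2 to 85.4 in LLC tumor. The sum hides unlike parts in blood. In replicate 1 Spn and Itgal, the largest part (1346 CPM in healthy blood and 1720 in LLC blood), were higher in LLC blood. The other markers of the sum, such as Cx3cr1 (486.8 and 436.6 CPM), were lower there. In such bulk libraries fewer cells of a type and less RNA per cell cannot be told apart.

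The bases before a start of Nr4a1 are shown because they held 4 TGACG cores, more than any other member's window, and the 1 EGR site among the members. They cover chr15:101266596-101266845 on the plus strand of GRCm38.p6, from RefSeq. That start lies inside the gene, whose first base is at 101253902, and no other Nr4a1 window was searched. Capitals mark CGTCA, the core on the other strand, and CGCCCCCGC, the EGR site GCGGGGGCG on the other strand.

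Nr4a1: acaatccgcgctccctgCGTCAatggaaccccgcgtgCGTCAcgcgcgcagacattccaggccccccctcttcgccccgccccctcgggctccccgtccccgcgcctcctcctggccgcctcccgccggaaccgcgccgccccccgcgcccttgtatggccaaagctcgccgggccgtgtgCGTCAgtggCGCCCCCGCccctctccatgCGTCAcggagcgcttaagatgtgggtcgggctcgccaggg

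The EGR site lay at -60 to -52 from that start and occurred in 2.91% of all windows. The cores lay at -233 to -229, -213 to -209, -69 to -65 and -40 to -36. Nr4a1 and Egr1 did not share an order of libraries: in LLC tumor Egr1 was lowest in replicate 1 and Nr4a1 highest there.

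Klf6 (ENSMUSG00000000078), a zinc finger factor of the KLF family that promotes inflammatory gene expression in macrophages, was at 456.3, 354.5 and 323.0 CPM in healthy blood, 319.5, 291.8 and 347.0 in LLC blood, and LLC tumor had 1756, 1170.5 and 933.3. The blood groups overlapped each other, and the tumor libraries were above all 6 of them. Klf6 rose by 2.25 ± 0.29 over LLC blood (adjusted p = 0.000122) and by 1.98 ± 0.29 over healthy blood (adjusted p = 0.000226). The difference in blood was -0.27 ± 0.28 (95% interval -0.89 to 0.35, adjusted p = 0.524).

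Its relatives moved in both directions. Klf2, a factor of quiescent monocytes and endothelium, was at 419.97 CPM in healthy blood, 274.2 in LLC blood and 150.9 in LLC tumor. It fell by 0.64 ± 0.18 in LLC blood (adjusted p = 0.0339) and by a further 0.68 ± 0.19 in LLC tumor (adjusted p = 0.0104). Klf4, which monocyte differentiation needs, was at 249.1 CPM in healthy blood, 184.5 in LLC blood and 279.2 in LLC tumor. It rose by 0.83 ± 0.25 from LLC blood to LLC tumor (adjusted p = 0.0159). Its difference between LLC tumor and healthy blood, 0.37 ± 0.25, was not called (adjusted p = 0.211). Klf7 rose by 2.23 ± 0.27 in LLC blood (adjusted p = 0.000644) and by 1.92 ± 0.23 from there to LLC tumor (adjusted p = 8.26e-05). Klf6 to Nr4a1 counts within a library were 0.610 to 1.05 in healthy blood, 0.592 to 1.26 in LLC blood and in LLC tumor 1.76 to 2.92.

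**Figure D3:**
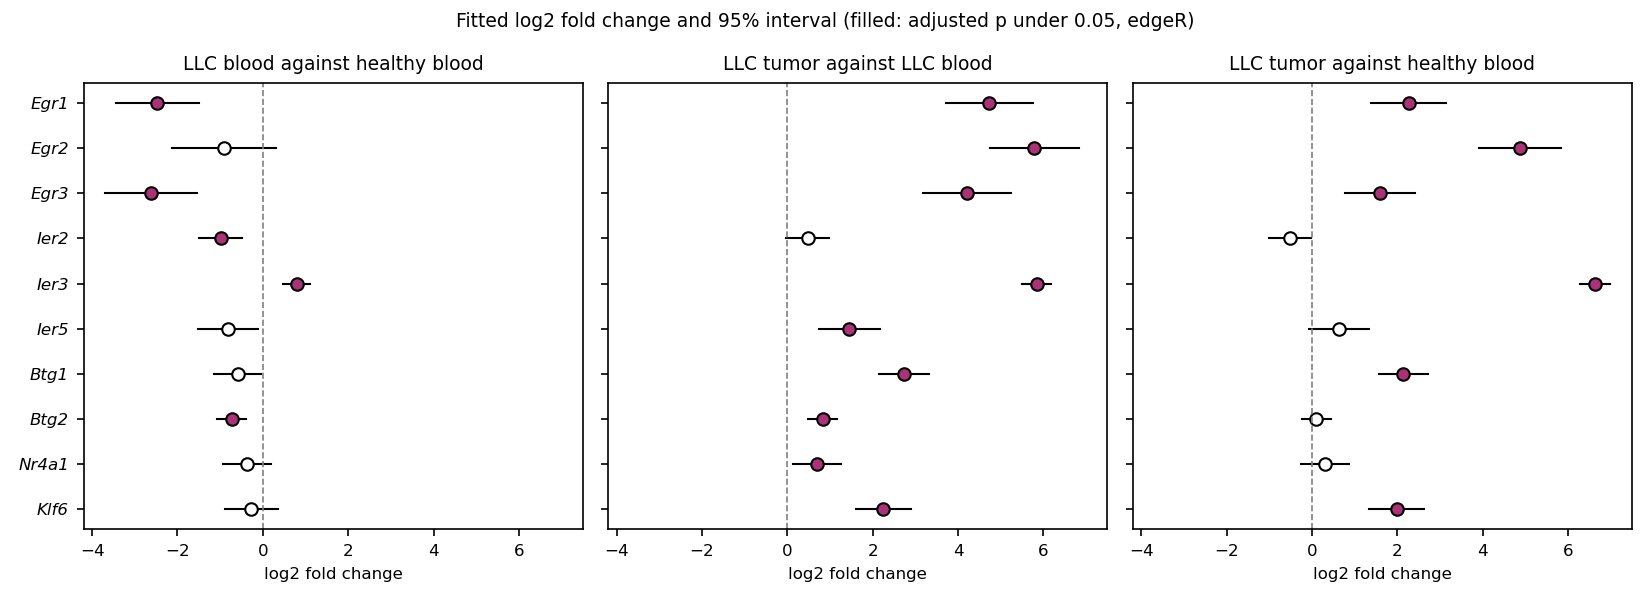
Fitted log2 fold change of each gene with its 95% interval (x axis, the same range in each panel) in the 3 comparisons; filled points were called at an adjusted p under 0.05 by edgeR. LLC tumor against LLC blood called 9 of 10 genes, from Nr4a1 at 0.69 to Ier3 at 5.84, and Ier2 at 0.48 was the open point.

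Counted by library rather than by test, 8 of the 10 members had LLC blood and healthy blood apart, Ier3 above and 7 below (all but Ier3, Nr4a1 and Klf6). Of all genes 51.3% had those groups apart. LLC tumor was apart from LLC blood for 8 members, all above, against 68.3% of all genes in either direction. It was apart from healthy blood for 8 members, 7 above and Ier2 below, against 70.6% of all genes. Each of these shares of members is to be read against that background.

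Within groups, a single library was often the highest for most members. LLC blood 1 was the highest of its group for 7 members (all but Egr3, Ier3 and Klf6), and the members' median deviation from the group mean was 0.40 (log2) there, against -0.19 and -0.07 in LLC blood 2 and 3. LLC tumor 1 was the highest for 6 members (Egr2, Ier5, Btg1, Btg2, Nr4a1 and Klf6) and the lowest for Egr1, Ier2 and Ier3. LLC tumor 1 had a TMM factor of 0.798, and with levels scaled by these factors, as in the tests, Ier2 was at 217.5, 204.02 and 201.4 CPM in LLC tumor and thus highest in replicate 1, while Egr1 (110.6, 213.8 and 135.2) and Ier3 (635.4, 679.2 and 696.8) were still lowest there. Healthy blood 1 was the highest for 7.

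Genes upstream of the members were called about as often as all genes were, and with smaller medians than the members. Of 22 genes of the route from RAS and ERK to SRF and CREB, all tested, 5 rose and 0 fell in LLC blood, with a median of 0.07. From LLC blood to LLC tumor 10 rose and 4 fell, with a median of 0.09. Against healthy blood 11 rose and 4 fell in LLC tumor, with a median of 0.23. Elk4, an ETS partner of SRF, rose by 2.08 ± 0.13 in LLC blood (adjusted p = 2.30e-05). In LLC tumor against LLC blood Elk1, another such partner, rose by 1.17 ± 0.11 (adjusted p = 1.90e-05), and the SRF coactivators parted: Mkl2 rose by 1.23 ± 0.09 (adjusted p = 2.87e-06) and Mkl1 fell by 2.03 ± 0.11 (adjusted p = 5.58e-07). Rps6ka1, the kinase RSK1 downstream of ERK, fell by 1.31 ± 0.08 (adjusted p = 1.52e-06).

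Other immediate early genes rose with the members in the tumor. Of 29 outside AP-1, 28 rose and 0 fell from LLC blood to LLC tumor, with a median of 3.20. Rgs1, a brake on G protein signalling, went from 1.51 to 593.1 CPM, a rise of 9.06 ± 0.64 (adjusted p = 3.04e-06), and Plk2 rose by 5.52 ± 0.55 (adjusted p = 2.48e-05). In LLC blood against healthy blood 0 of the 29 rose and 5 fell, among them the ERK phosphatase Dusp6 by 0.67 ± 0.13 (adjusted p = 0.00585). Against healthy blood 25 rose in LLC tumor and 1 fell. The 10 AP-1 genes gave 9 rises and 1 fall from LLC blood to LLC tumor, with a median of 3.00, 8 and 1 against healthy blood, and 0 and 1 in blood. Of 11 tested paralogs and corepressors of the members, 9 rose and 2 fell from LLC blood to LLC tumor, 8 rose and 2 fell against healthy blood, and 1 rose and 2 fell in LLC blood against healthy blood.

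Heat shock and chaperone genes, some of which digestion and sorting are known to induce, were also higher in LLC tumor than in LLC blood. Of 14 heat shock genes, all 14 rose from LLC blood to LLC tumor, with a median of 1.51, 8 rose against healthy blood and 0 fell, and in LLC blood against healthy blood 0 rose and 2 fell. Hspa1a, the inducible HSP70, was at 980.7, 514.9 and 417.9 CPM in healthy blood, 419.2, 17.4 and 10.9 in LLC blood, and LLC tumor had 1920.1, 730.8 and 986.7. LLC blood 1 was thus close to healthy blood, and the lowest tumor library lay below the highest healthy blood library. The rise of Hspa1a over LLC blood was 3.30 ± 1.23 (adjusted p = 0.0406), and its difference from healthy blood was 1.17 ± 1.13 (adjusted p = 0.386).

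Jun gave 592.7, 413.8 and 411.6 CPM in healthy blood, 377.9, 15.1 and 10.05 in LLC blood, and LLC tumor had 1443, 1566 and 1582, with LLC blood 1 again the highest of its group. The part of handling in the members' tumor rise was not tested. Between LLC tumor and healthy blood Hsp90aa1 rose by 2.41 ± 0.29 (adjusted p = 6.34e-05), Hspa5 by 1.84 ± 0.21 (adjusted p = 5.00e-05) and Hsph1 by 1.80 ± 0.30 (adjusted p = 0.000525), while Hspa1a, with its wide spread, was not called. In that comparison 6 members were called and 4 (Ier2, Ier5, Btg2 and Nr4a1) were not. LLC tumor 1 was highest in Hspa1a and in 6 members but lowest in Egr1 and Ier3.

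Markers of other cells differed between the groups too. Besides fibroblasts, LLC tumor held 53.0 to 70.0 CPM of summed endothelial markers against 11.2 to 18.9 in blood, and 63.1 to 101.3 of epithelial markers against 1.35 to 2.77, with Epcam at 0 in 2 of the 3 tumor libraries and Cldn4 at 0 in all 3. Most of the endothelial sum was Pecam1, which monocytes express too (41.0 to 56.1 CPM in LLC tumor), with Cdh5 at 2.53 to 4.41 there and 0.368 to 1.0005 in blood, and most of the epithelial sum was Cdh1 and Krt18. Of 6 platelet markers Ppbp alone was higher, at 110.4, 91.8 and 66.02 CPM in LLC tumor and 0.966 to 6.88 in blood, while Gp5, Gp6 and Gp9 were at 0 in 2 of the 3 tumor libraries. The summed fibroblast markers and Egr1 were both lowest in LLC tumor 1, whereas Egr2, Ier5, Btg1, Btg2, Nr4a1 and Klf6 were highest there. In healthy blood NK cell markers summed to 172.6 to 417.6 CPM, and in LLC blood to 24.7 to 43.2. T cell markers summed to 38.5 to 188.0 and 3.94 to 6.41 CPM, and B cell markers to 17.3 to 166.5 and 10.4 to 14.5. The sum of neutrophil markers went the other way, at 169.8 to 207.1 and 237.3 to 389.6 CPM. In replicate 1 nearly all of it was Mmp8, with 171.3 of 172.8 CPM in healthy blood and 230.7 of 237.3 in LLC blood. There the sum thus describes 1 gene rather than the neutrophil markers as a set. Erythroid markers were at 222.2 to 649.8 CPM in healthy blood, 168.3 to 919.2 in LLC blood and 1.08 to 3.46 in LLC tumor. The part of these cells in the members' differences was not tested.

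**Figure D4:**
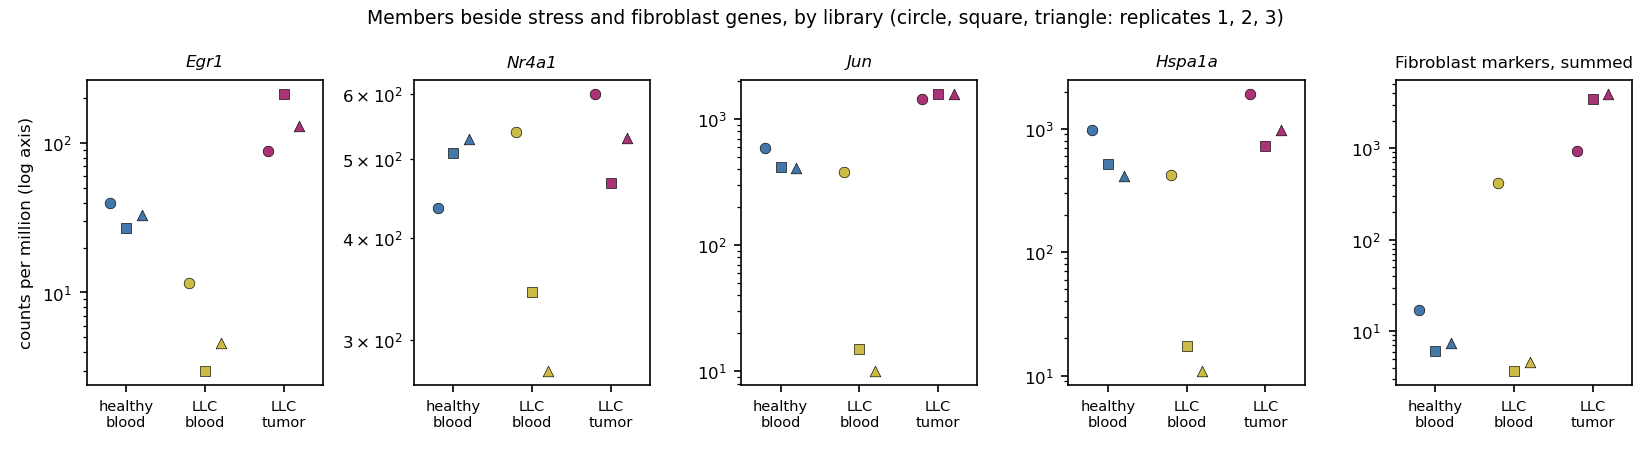
CPM (y axis, logarithmic, with its own range in each panel) of Egr1, Nr4a1, Jun, Hspa1a and the sum of 7 fibroblast markers in each library; circles, squares and triangles are replicates 1, 2 and 3. In LLC blood replicate 1 was the highest in all 5 panels, and in LLC tumor replicate 1 was the lowest for Egr1 and the fibroblast sum and the highest for Nr4a1 and Hspa1a; the order of Jun there turned with the scaling (1443, 1566 and 1582 CPM by library totals, 1807, 1568 and 1635 by TMM).

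For each member the gene with the most similar pattern was sought among the 6893 genes that averaged 20 CPM or more, by Pearson's r of log2(CPM + 1) over the 9 libraries. These r values are descriptions, since the points share libraries and group differences. Btg1 was most like Nfkbia, the NF-kB inhibitor (r = 0.997), Klf6 most like the inflammasome gene Nlrp3 (0.993) and Ier3 most like the receptor gene Lilr4b (0.998). Nr4a1 was most like Hspa1a (0.904), the lowest r of the 10. Egr1 was closest to Mllt6 (0.980), Ier5 to Sdc3 (0.975), Btg2 to Stx4a (0.960) and Ier2 to 0610012G03Rik (0.964). Egr2 was closest to 1110007C09Rik (0.998) and Egr3 to Hax1 (0.973), and with a pseudocount of 0.1 these became Trib1 (0.998) and Ube2s (0.987).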

How the data were processed

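RNA-seq was analysed in 9 libraries of 31 samples; 22 samples of chromatin assays were not analysed here. The authors deposited expected counts per gene and a table of CPM values. Per the submitters' processing notes the tools include STAR 2.6.1d, Salmon 1.9.0 and edgeR and the build is mm10; which made which table is not given in the sources used here. Blood columns headed BM were read as blood monocyte, since the sample titles name blood. Of the values, 8.56% to 9.73% per library were not whole and were rounded. In the deposited CPM table, 100% of values for 10693 genes were whole reads (tolerance 0.01 reads), and edgeR on those reads called 2584, 6792 and 7236 genes (LLC blood against healthy blood, LLC tumor against LLC blood, LLC tumor against healthy blood).

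Tests used edgeR 4.0.16 (R 4.3.3): quasi-likelihood, TMM factors, filterByExpr, group as the only term, all 9 libraries, Benjamini-Hochberg adjustment. It called 2917, 7566 and 8209 of 12337 genes. On simulated data for LLC blood against healthy blood, 65% of 200 genes changed 2-fold were recovered among 12337 genes, with 7 false calls. Alternatives used DESeq2 1.42.0 and limma 3.58.1. The 10 members, the lists and the tests were chosen with earlier results of these data known. Named genes were the members, their tested paralogs and corepressors, at most 4 genes per other list, the most changed of those called and averaging 20 CPM or more, defining markers, and the most similar gene of each member. Gene positions and promoters came from RefSeq tables of GRCm38.p6, the assembly named mm10.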

Additional observations from a re-analysis of the deposited data

How the results depend on the processing

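In simulated counts for LLC blood against healthy blood 65% of genes changed 2-fold were recovered, and Egr3 was at its counting limit in LLC blood. In LLC blood against healthy blood the number of genes called (2917) was the least stable: 4889 with only the 6 libraries compared, 1386 at an adjusted p under 0.01, 769 with a log2 fold threshold of 1 and 5884 with limma-voom and sample weights. With 1 library left out it ran from 1494, when that was LLC blood 2, to 5064, when it was LLC tumor 1; it was 1873 and 1697 when healthy blood 2 or 3 was left out, and 1577 for LLC blood 3. Of the members, 5 were called there, 2 with the fold threshold, 8 with limma-voom, and 4 to 8 with 1 library left out, where 8 was without LLC tumor 1. With a fold threshold the other comparisons called 3538 genes (LLC tumor against LLC blood) and 3989 (LLC tumor against healthy blood). Leaving out 1 library gave 8 to 10 and 6 to 8 members called in these. The cause was not tested. The difference of Btg2 between LLC tumor and healthy blood, which was not called, turned negative with library totals (-0.0799), upper-quartile factors (-0.0019) and limma-voom (-0.0314), and with 1 library left out it ran from -0.0619 (LLC tumor 1) to 0.199 (LLC tumor 3). Scaling by library totals moved the median of all genes to -0.23 in LLC tumor against LLC blood and -0.17 against healthy blood. It gave 2856 higher and 5013 lower calls against 3652 and 3914, and 3375 and 4955 against 4137 and 4072. Upper-quartile factors gave 1490 higher and 1727 lower calls in blood against 1732 and 1185. Whether the numbers of the libraries pair them was not settled by correlating deviations from the group means. Same-numbered libraries of healthy and LLC blood correlated at 0.297, 0.181 and 0.073, and differently numbered ones at -0.308 to 0.165. For healthy blood and LLC tumor the values were 0.076, 0.050 and 0.092 against -0.094 to 0.056. For LLC blood and LLC tumor they were -0.08, 0.120 and -0.14 against -0.137 to 0.174. With the replicate number as a block in all 9 libraries 2788, 7455 and 8093 genes and 6, 10 and 8 members were called, and with the block in the 6 libraries compared 4820, 6556 and 7133 genes and 6, 9 and 8 members.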
